A study of Mus musculus with 2 samples.

Results

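The insulin-like growth factors Igf1 and Igf2, their receptors Igf1r and Igf2r, and the binding proteins Igfbp2 to Igfbp7 were followed across 2 coronal sections of injured mouse brain. These 10 genes were taken by symbol from the 19070 genes in the deposited tables, and together they gave 119697 unique molecular identifiers (UMIs, one per captured molecule) at 3 days and 90943 at 28 days after injury. Both animals were male C57Bl6 mice of 3 months (C57BL/6J in the study's methods) that received a controlled cortical impact (CCI), in which a piston driven onto the exposed cortex damages one hemisphere. The compared groups were CCI 3 days and CCI 28 days, with 1 section from 1 animal in each. The brains were fixed by perfusion with paraformaldehyde, embedded in paraffin and measured with Visium HD, a probe-based assay that counts transcripts on a grid of square bins, here 16 µm wide. No section from a sham-operated or uninjured animal was analysed here, so the reference was the opposite side of the same brain, which shares the anaesthesia and any brain-wide effect of the impact. With 1 section per group there was no replicate check, no test across animals was possible, and a difference between the days could not be told apart from a difference between the animals.

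Insulin-like growth factors are small secreted hormones related to insulin that promote growth, survival and differentiation through the tyrosine kinase receptor Igf1r. Most of the factor outside cells is held by binding proteins, which prolong its life, block it or deliver it, while Igf2r, the mannose-6-phosphate receptor, removes Igf2 and carries lysosomal enzymes. In the adult brain Igf2 is known as a product of the meninges and the choroid plexus, and Igf1 is made by some neurons and by microglia under certain conditions.

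On the mouse genome GRCm38, the build (mm10) that the submitters named, both factors lie on different chromosomes, Igf1 on chromosome 10 from 87858265 to 87937047 (plus strand) and Igf2 on chromosome 7 from 142650768 to 142666816 (minus strand). Igf1r spans 67952257 to 68233668 of chromosome 7 (plus strand) and Igf2r 12682406 to 12769706 of chromosome 17 (minus strand). Igfbp2 (chromosome 1, 72824480 to 72852474, plus strand) and Igfbp5 (chromosome 1, 72858065 to 72874865, minus strand) are neighbours, 5590 bp apart with 0 annotated genes between them. Igfbp3 lies at 7206086 to 7215498 (minus strand) and Igfbp4 at 99040005 to 99052655 (plus strand), both on chromosome 11. Igfbp6 lies at 102144186 to 102149512 of chromosome 15 (plus strand) and Igfbp7 at 77349240 to 77408045 of chromosome 5 (minus strand). Each gene was read through its own probes, so levels were compared between places and days, never between genes.

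The sections held 121967 bins with a median of 836 UMIs at 3 days and 105589 bins with a median of 596 UMIs at 28 days. The midline was placed at column 130 at 3 days and column 240 at 28 days, which was also the median column of Gbx2, a thalamic gene, in each section. The capture area reached 2080 µm into the injured side and 4624 µm into the opposite side at 3 days, against 3840 µm and 2864 µm at 28 days. The sides therefore held unequal anatomy, which bears on every side comparison here. The lesion zone was defined as the connected area of the injured side where 6 phagocyte genes exceeded the 99th percentile reached on the uninjured side, and its mirror zone is the same area reflected across the midline. The zone held 8506 bins at 3 days and 13559 bins at 28 days, with 607 and 528 UMIs per bin against 927 and 628 in the mirror zones. Summed levels, as counts scaled to 1000000 UMIs of the area (CPM), showed what else moved with the zone. The 6 microglial markers summed to 2016 CPM against 616 in the mirror at 3 days and to 5051 against 338 at 28 days. The 5 fibroblast markers summed to 511 against 73.5 CPM and to 365 against 42.3 CPM, while the 6 neuronal markers summed to 1848 against 6654 CPM and to 2217 against 5900 CPM. The tissue of the areas was not alike, since thalamic bins made up 0.0470% of the zone and 13.4% of the mirror at 3 days and 6.90% and 27.5% at 28 days, and deep cortical bins 2.43% and 18.4%, then 1.90% and 8.56%. The 4 oligodendrocyte markers summed to 4978 against 1766 CPM at 3 days and 3486 against 3496 CPM at 28 days. The part of these differences in the ratios was not tested. All markers of the microglial, fibroblast and neuronal lists were detected in both zones on both days. A bin holds parts of several cells, and fewer cells of a type could not be told apart from less RNA per cell.

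At 3 days, 2 of the 10 genes had a lesion zone level at least 2-fold above that of the mirror zone, Igfbp3 and Igfbp7, and 0 were at least 2-fold lower. Of the 13542 genes with enough counts, 17.0% were at least 2-fold higher and 8.57% at least 2-fold lower in that comparison. At 28 days, 6 of the 10 were at least 2-fold higher, namely Igf1, Igf2, Igfbp2, Igfbp3, Igfbp5 and Igfbp7, and 0 were lower, beside 16.4% higher and 7.82% lower among 13593 genes. Without bins of choroid plexus, ependyma, fibroblasts and meninges, 4 of the 10 were at least 2-fold higher at 28 days, Igf2 and Igfbp3 no longer among them, beside 12.7% of all genes. At 3 days 3 of the 10 were then higher, Igfbp2 in addition, beside 17.9%. The 3-day counts also moved with the outline of the zone and the place of the midline, as given in the closing section. The median log2 ratio of the 10 genes was 0.34 at 3 days and 1.45 at 28 days, against 0.13 and 0.00 over all genes compared. All 10 genes reached the minimum of 20 UMIs over both areas in each comparison of the report. Intervals given with ratios and levels are 95% intervals that cover counting error only.

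**Figure D1:**
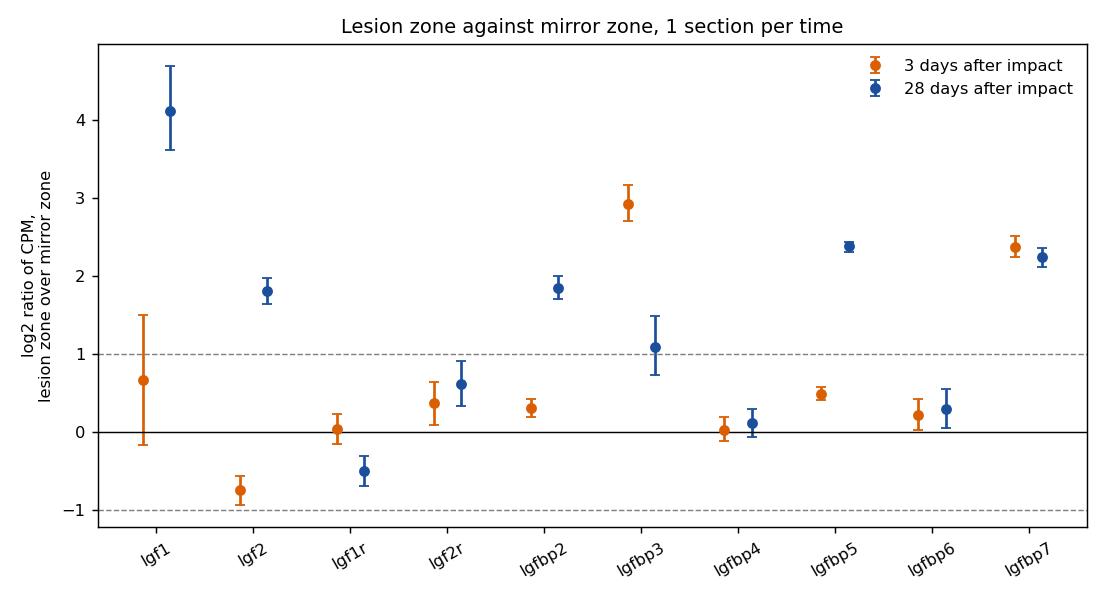
Log2 ratio of each gene's CPM in the lesion zone over the mirror zone at 3 days and at 28 days, with 95% counting intervals as bars and dashed lines at 2-fold. Igfbp3 (2.92) and Igfbp7 (2.37) stand apart at 3 days, and Igf1 (4.11), Igfbp5 (2.38) and Igfbp7 (2.24) lie highest at 28 days.

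Igf1, the growth factor that acts through Igf1r, was sparse in the 3-day section and collected in the lesion zone of the 28-day section. At 3 days the zone gave 28 UMIs, or 5.42 CPM, and the mirror zone 25 UMIs, or 3.43 CPM (log2 ratio 0.66, interval -0.17 to 1.5). At 28 days the zone gave 542 UMIs, or 75.7 CPM, against 32 UMIs and 4.34 CPM in the mirror (17.2-fold, log2 ratio 4.11, interval 3.61 to 4.69). The zone held 8.70% of all UMIs of the 28-day section but 62.2% of its Igf1 UMIs. Counts per bin stayed low even there. An Igf1 UMI was seen in 499 of the 13559 zone bins, or 3.68% (exact binomial interval 3.37 to 4.01), at a median depth of 399 UMIs, and the highest bin held 3. In the mirror zone the share was 0.247% at a median depth of 498 UMIs, so the higher share did not go with a higher depth.

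Within the 28-day zone, Igf1 was distributed unevenly with respect to cell-type markers. Each bin was thinned to 300 UMIs, which left out 4404 shallower bins, and bins with a microglial marker UMI (from a list that includes Tmem119, P2ry12 and C1qa) were set against those without. Igf1 stood at 104 CPM in 6041 bins with such a UMI and at 31.0 CPM in 3114 bins without (log2 ratio 1.73, interval 1.18 to 2.37). Without thinning it was 1.38 (0.97 to 1.84). For bins with and without a neuronal marker UMI the log2 ratio was -0.91 (-1.38 to -0.47), and for astrocyte markers 0.36 (-0.18 to 0.99). In the 28-day mirror zone the thinned bins held 2 and 13 Igf1 UMIs with and without a microglial marker, too few for a ratio to be read. The zone was itself chosen by phagocyte genes, and the bins are neighbours within 1 section, so these ratios describe that section. At 3 days, when the microglial markers were also higher in the zone, Igf1 gave 6 UMIs in 2680 bins with a microglial marker and 4 in 4162 bins without.

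Igf1 was higher in the 28-day zone across several sets of bins. In bins of the 28-day zone that matched none of the 12 anatomical marker lists, Igf1 stood at 93.6 CPM against 4.06 CPM in such bins of the opposite side (22.9-fold, log2 ratio 4.51, interval 4.07 to 5.02). These bins are a remainder, 59.7% of the zone and 30.7% of the opposite side, and were not matched for tissue. In white matter of the zone, recognised by myelin genes, it gave 16 UMIs in 1139 bins, or 67.9 CPM. White matter of the opposite side gave 0 Igf1 UMIs in 4936 bins. The zone level was 26.2-fold that of a floor of 3 counts over those bins, without the counting error of the 16 UMIs. In 1003 zone bins scoring for ependyma, the lining of the ventricles, Igf1 stood at 69.6 CPM, against 0 UMIs in 784 such bins of the opposite side. That was 9.67-fold the level of a floor of 3 counts there, again without the counting error of the zone. All 8 ependymal markers were lower in those zone bins (Ccdc153 at 222 against 848 CPM), and the mirror zone held only 109 such bins, so the sets were not like for like. With depth below the tissue edge, which at 28 days included an open gap beside the zone, Igf1 in the zone stood at 66.9 CPM within 250 µm, 115 CPM between 500 and 1000 µm and 52.7 CPM deeper. Just outside the zone the 28-day level was near that of the other hemisphere. Over the first 250 µm beyond its edge Igf1 stood at 6.83 CPM (5.00 to 9.11), against 5.29 CPM (3.59 to 7.51) in the mirrored band.

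Igf2, the second factor, gave zone ratios of opposite sign on the 2 days. At 3 days it stood at 62.6 CPM in the zone (323 UMIs) and 105 CPM in the mirror (766 UMIs) (log2 ratio -0.75, interval -0.94 to -0.56). At 28 days it stood at 189 CPM (1354 UMIs) against 54.2 CPM (400 UMIs) (3.49-fold, log2 ratio 1.80, interval 1.64 to 1.97). Once bins of choroid plexus, ependyma, fibroblasts and meninges were left out of both areas, a setting chosen after seeing the data, the log2 ratios were 0.25 (-0.22 to 0.71) and 0.03 (-0.25 to 0.31). The 3-day sign also turned with the outline of the zone, from -1.43 with a stricter threshold to 1.29 with a looser one, so no direction was read at 3 days. The choroid plexus list itself was lower in the zone, at 113 against 235 CPM at 3 days and 52.1 against 78.3 CPM at 28 days.

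**Figure D2:**
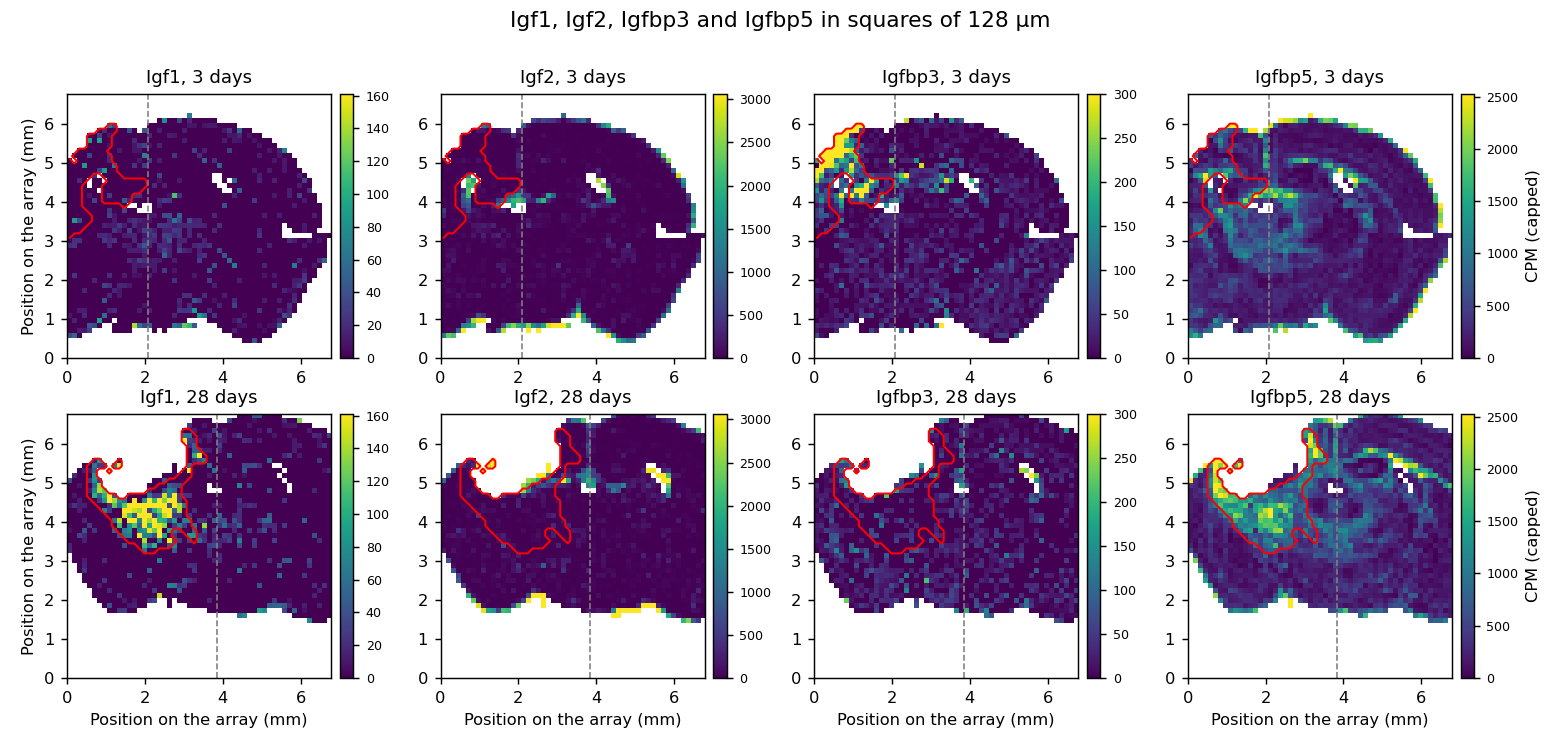
Maps of Igf1, Igf2, Igfbp3 and Igfbp5 in the 3-day section (upper row) and the 28-day section (lower row), each point a square of 8 by 8 bins coloured by CPM up to a per-gene ceiling shared by both sections, with the lesion zone outlined in red and the midline dashed. Igf1 is higher in the zone at 28 days (75.7 CPM) than at 3 days (5.42 CPM), though only 3.68% of the 28-day zone bins held an Igf1 UMI. Igfbp3 is brightest in the zone at 3 days (200 CPM), and Igf2 traces the outer border and the ventricles.

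Both receptors differed little. Igf1r, the signalling receptor, stood at 71.3 CPM in the zone and 69.5 CPM in the mirror at 3 days (log2 ratio 0.04, interval -0.16 to 0.23). At 28 days it stood at 53.2 against 75.3 CPM (log2 ratio -0.50, interval -0.69 to -0.31). Igf2r, the clearance receptor, stood at 41.6 against 32.3 CPM at 3 days, 0.37 on the log2 scale (0.09 to 0.64). Its 28-day levels were 35.3 and 23.0 CPM, a log2 difference of 0.62 (0.33 to 0.91). Neither receptor passed 2-fold between zone and mirror on either day.

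Igfbp3, the main carrier of these factors in blood, had the highest 3-day zone ratio of the 10 genes. It stood at 200 CPM in the zone (1030 UMIs) and 26.2 CPM in the mirror (191 UMIs) (7.59-fold, log2 ratio 2.92, interval 2.70 to 3.16). The zone held 4.29% of the UMIs of the section but 31.8% of those of Igfbp3, and 8.63% of zone bins carried it against 2.34% of mirror bins, with up to 13 UMIs in a bin. The signal lay toward the outer edge of the tissue. From 689 CPM (627 to 756) within 250 µm of the outer background, Igfbp3 went to 273 CPM between 250 and 500 µm, 124 CPM between 500 and 1000 µm and 71.6 CPM deeper. At 28 days the zone gave 26.4 CPM (189 UMIs) against 12.3 CPM (91 UMIs), 1.09 on the log2 scale (0.73 to 1.48) or 2.14-fold. That 28-day ratio was 0.41 without bins of choroid plexus, ependyma, fibroblasts and meninges, and 0.30 when zone bins lacking a mirror partner were dropped, both under 2-fold.

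Bins carrying Igfbp3 at 3 days did not follow the glial markers. After thinning, its level was 377 CPM in zone bins with a fibroblast marker UMI and 163 CPM in bins without (log2 ratio 1.22, interval 0.76 to 1.62). For endothelial markers the log2 ratio was 0.53 (0.10 to 0.92) and for microglial markers 0.06 (-0.25 to 0.37). For astrocyte markers it was -1.33 (-1.64 to -1.03), with 118 against 298 CPM (-1.60 without thinning), and for oligodendrocyte markers -1.05 (-1.36 to -0.75). Zone bins matching no anatomical list held Igfbp3 at 259 CPM, against 18.3 CPM in such bins of the opposite side, a log2 ratio of 3.83. Such bins made up 55.4% of the zone and 29.4% of the opposite side, so they were not matched for tissue. A bin under the score can still hold fibroblast RNA, so this contrast cannot separate the sources.

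Igfbp7, a vascular and matrix protein that binds these factors weakly, was higher in the zone at both days. At 3 days it stood at 423 CPM (2184 UMIs) against 81.6 CPM (594 UMIs) (5.18-fold, log2 ratio 2.37, interval 2.24 to 2.51). At 28 days it again stood at 423 CPM (3030 UMIs), against 89.5 CPM (661 UMIs), 2.24 on the log2 scale (2.12 to 2.36) or 4.72-fold. The 28-day zone held 771 CPM within 250 µm of the outer background. It held 154 CPM between 250 and 500 µm, 179 CPM between 500 and 1000 µm and 169 CPM deeper. At 3 days the same bands of the zone held 694, 431, 657 and 224 CPM, so the equal totals hid unlike distributions. In the 3-day zone the thinned bins with an endothelial marker UMI held 1090 CPM of Igfbp7 and those without 272 CPM (log2 ratio 2.00, interval 1.78 to 2.22), and the same contrast in the mirror zone gave 2.25 (1.79 to 2.68). Without thinning the zone ratio was 2.13. Bins with fibroblast markers gave 2.01 and bins with mural markers 1.53 in the zone. The summed vascular lists moved with the zone as well, endothelial genes at 553 against 234 CPM and mural genes at 836 against 199 CPM at 3 days, and at 425 against 303 CPM and 452 against 288 CPM at 28 days. Their part in the Igfbp7 result was not tested. Without bins of choroid plexus, ependyma, fibroblasts and meninges the Igfbp7 ratios were 2.27 and 1.63 on the log2 scale.

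Igfbp5, a matrix-bound binding protein, differed most at 28 days. It stood at 527 CPM in the zone and 375 CPM in the mirror at 3 days (log2 ratio 0.49, interval 0.41 to 0.57), which was 0.04 (-0.05 to 0.14) once choroid plexus, ependyma, fibroblast and meningeal bins were left out. At 28 days it stood at 1513 CPM (10832 UMIs) against 292 CPM (2153 UMIs) (5.19-fold, log2 ratio 2.38, interval 2.31 to 2.44), and 2.19 without those bins. White matter was an exception, with 1086 CPM in the zone and 994 CPM on the opposite side (log2 ratio 0.13, interval -0.07 to 0.32). Igfbp5 was seen in 40.2% of zone bins against 15.4% of mirror bins at 28 days, and 31.3% of its UMIs in that section lay in the zone. Within the 28-day zone its level was highest near the outer background, which included the open gap beside the zone. Igfbp5 stood at 2014 CPM within 250 µm of that background and was still 784 CPM beyond 1000 µm. At 3 days thinned zone bins with an astrocyte marker UMI held 614 CPM and those without 302 CPM (log2 ratio 1.02, interval 0.80 to 1.25), and at 28 days that ratio was 0.47, or 0.78 and 0.61 without thinning. The summed astrocyte list stood at 5041 against 1912 CPM in the zone and mirror at 3 days, then 8232 against 1010 CPM, and its part in the Igfbp5 result was not tested. By anatomical list, Igfbp5 in the 3-day zone stood at 1438 CPM in ependymal bins and 1381 CPM in fibroblast and meningeal bins. It stood at 458 CPM in white matter and 168 CPM in deep cortical bins.

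Igfbp2, the binding protein shared with the choroid plexus and meninges, stood at 224 CPM in the zone and 182 CPM in the mirror at 3 days, 0.31 on the log2 scale (0.19 to 0.42). Without choroid plexus, ependyma, fibroblast and meningeal bins that ratio was 1.30 (1.14 to 1.46), past 2-fold. At 28 days it stood at 228 CPM (1634 UMIs) against 63.5 CPM (469 UMIs) (3.59-fold, log2 ratio 1.84, interval 1.70 to 2.00), and 1.98 without those bins. Bins outside all anatomical lists were not matched for tissue. In the zone they held 192 CPM at 3 days and 220 CPM at 28 days, against 59.4 and 30.8 CPM in the other hemisphere. This did not hold in every class, since zone bins of the deep cortical list, which also marked some hippocampus, gave 2 Igfbp2 UMIs in 207 bins at 3 days, or 11.2 CPM, against 58.3 CPM on the opposite side.

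Igfbp4 and Igfbp6, an inhibitory binding protein and one that prefers Igf2, did not pass 2-fold. Igfbp4 stood at 116 against 113 CPM at 3 days (log2 ratio 0.03, -0.12 to 0.19), and its 28-day levels were 76.6 and 70.6 CPM (0.12, -0.06 to 0.29). Igfbp6 stood at 72.8 against 62.6 CPM at 3 days (0.22, 0.02 to 0.42), and its 28-day levels were 40.8 and 33.1 CPM (0.30, 0.05 to 0.55). In zone bins of no anatomical list Igfbp6 was lower at 28 days, with 15.9 CPM against 56.8 CPM on the opposite side. Its log2 ratio was -1.82, between bins not matched for tissue.

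**Figure D3:**
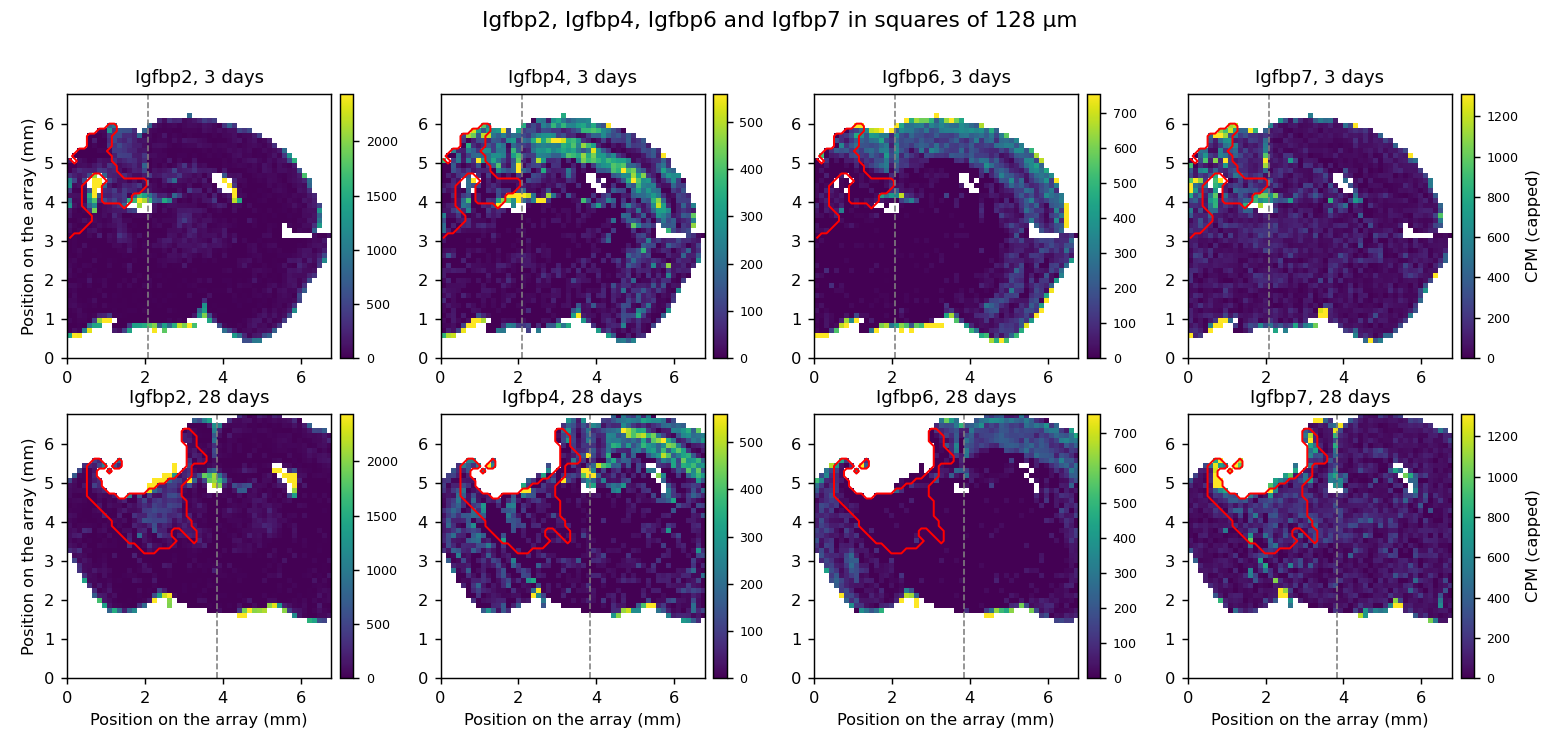
Maps of Igfbp2, Igfbp4, Igfbp6 and Igfbp7 in the 3-day section (upper row) and the 28-day section (lower row), each point a square of 8 by 8 bins coloured by CPM up to a per-gene ceiling shared by both sections, with the lesion zone outlined in red and the midline dashed. Igfbp7 is bright in the zone on both days (423 CPM in each), at 28 days mainly within 250 µm of the outer background (771 CPM). Igfbp4 and Igfbp6 trace the cortex.

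Compared directly, the lesion zones of the 28-day and 3-day sections differed by at least 2-fold for 4 of the 10 genes, 3 higher and 1 lower at 28 days. Over all 13669 genes compared, 4.70% were at least 2-fold higher and 6.24% at least 2-fold lower. Igf1 was 13.7-fold higher at 28 days (log2 ratio 3.78, 3.26 to 4.41), Igf2 3.02-fold (1.59, 1.42 to 1.78) and Igfbp5 2.87-fold (1.52, 1.46 to 1.58). Igfbp3 was 7.54-fold lower (log2 ratio -2.91, -3.15 to -2.69). On the opposite side 0 of the 10 genes passed 2-fold either way, with log2 ratios between -0.46 for Igfbp6 and 0.48 for Igf2, beside 1.52% higher and 1.03% lower among 16185 genes. The difference of the zone ratios between the days, which sets each zone against its own mirror, was 3.45 on the log2 scale for Igf1, 2.55 for Igf2, 1.89 for Igfbp5 and 1.54 for Igfbp2. It was -1.83 for Igfbp3 and lay between -0.54 and 0.25 for the other 5. The Igf2 difference rests in part on a 3-day zone ratio whose sign turned with the outline of the zone. Without bins of choroid plexus, ependyma, fibroblasts and meninges, the Igf2 zone ratios were 0.25 and 0.03. On the opposite side choroid plexus bins held 16.9% and 33.0% of Igf2 UMIs, and fibroblast and meningeal bins 60.3% and 45.2%. Most Igf2 UMIs of that side were thus left out, and the part of those bins in the difference was not tested. Without the same bins the Igfbp2 zone ratios were 1.30 and 1.98, closer together than with them.

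Fibroblasts and meninges were examined separately, since they held a large share of the Igf2 and Igfbp2 UMIs of the opposite side. They held 60.3% and 45.2% of Igf2 and 28.8% and 21.9% of Igfbp2 at 3 and 28 days, with 2.49% and 1.77% of all UMIs there. At 3 days 596 bins of the zone and 3253 bins of the opposite side matched the list of collagen and meningeal genes, a comparison added after seeing the data. The members went different ways in those zone bins. Igf2 stood at 416 CPM against 1871 CPM (4.49-fold lower), Igfbp2 at 339 against 1122 CPM (3.30-fold lower) and Igfbp6 at 234 against 759 CPM (3.23-fold lower). Igfbp3 went the other way, at 463 against 44.5 CPM (10.4-fold, log2 ratio 3.37, interval 3.01 to 3.75), and Igfbp7 stood at 1615 against 649 CPM. Igfbp4, at 418 against 292 CPM, and Igfbp5, at 1381 against 1980 CPM, were each under 2-fold. Against 1638 such bins of the injured side outside the zone, Igf2 was 3.79-fold lower, Igfbp2 3.95-fold lower, Igfbp6 2.92-fold lower and Igfbp3 13.8-fold higher, but Igfbp7 was only 1.61-fold higher. The list genes themselves differed in these bins. Ogn and Slc6a13, which mark meningeal fibroblasts, stood at 49.1 against 526 CPM and 65.4 against 251 CPM, whereas the collagen gene Col3a1 stood at 1678 against 310 CPM. At 28 days, with 560 and 1459 such bins, Igf2 stood at 2059 against 2758 CPM and Igfbp2 at 706 against 1239 CPM, each under 2-fold. Igfbp5 stood at 2629 against 804 CPM in those bins (3.27-fold higher), Igf1 at 69.8 against 23.7 CPM, and Igfbp3 at 91.1 against 33.7 CPM. Against such bins of the injured side outside the zone, Igfbp5 (1.67-fold) and Igfbp3 (1.83-fold) were under 2-fold, and Igf1 was 5.46-fold higher. Against the opposite side Ogn was lower on both days, at 147 against 616 CPM at 28 days. Dcn, another matrix gene, was higher than on the opposite side on both days, at 1543 against 511 CPM at 28 days. Against the injured side outside the zone, Dcn stood at 1068 against 1246 CPM at 3 days and 1543 against 570 CPM at 28 days.

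Fibroblast marker bins also carried Igf2 within the zone. After thinning, Igf2 stood at 460 CPM in 3-day zone bins with a fibroblast marker UMI and 26.2 CPM in bins without (log2 ratio 4.13, interval 3.58 to 4.70). At 28 days the levels were 1865 and 58.1 CPM, 5.00 on the log2 scale (4.70 to 5.32). Without thinning the ratios were 4.51 and 5.32. The log2 ratio of Igf2 with over without a microglial UMI was -1.14 at 3 days and -1.02 at 28 days, but 0.19 and 0.05 when bins were not thinned, so no direction was read for microglia.

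Most of the family was higher at the outer border of the tissue on the opposite side. Bins within 48 µm of the outer background were set against bins deeper than 320 µm. At 3 days 8 of the 10 genes, all but both receptors, were at least 2-fold higher at the border and 0 lower, beside 19.7% higher and 12.6% lower among 14536 genes. At 28 days 9 of the 10, all but Igf1r, were at least 2-fold higher and 0 lower, beside 24.6% higher and 18.9% lower among 13844 genes. Igf2 stood at 1574 CPM at the border and 25.3 CPM in the interior at 3 days (62.3-fold), and at 4131 and 29.2 CPM at 28 days (142-fold). The 28-day border held only 534 bins against 2456 at 3 days, and the capture area reached less far into that side at 28 days. A border UMI of Igf2 was found in 46.1% of border bins at 3 days and 55.6% at 28 days.

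The binding proteins shared that border to differing degrees. Igfbp2 stood at 957 CPM at the border at 3 days (log2 ratio 4.32) and was 48.6-fold higher there at 28 days, Igfbp6 13.1-fold (866 against 66.4 CPM) at 3 days, Igfbp5 8.76-fold (2015 against 230 CPM) and Igfbp7 6.93-fold (461 against 66.5 CPM). Igf1 was among the genes past 2-fold, at 14.8 against 3.74 CPM at 3 days and, on 7 border UMIs, at 27.5 against 3.95 CPM at 28 days. Igf2r passed at 28 days on 13 border UMIs, with a log2 ratio of 1.03 (0.06 to 1.76). Going inward at 3 days, Igf2 went from 1574 CPM at the border to 409 CPM between 48 and 96 µm, 22.7 CPM between 96 and 192 µm and 11.6 CPM between 192 and 320 µm. Igfbp6 behaved otherwise, with 866, 130, 159 and 179 CPM over the same bands and 65.0 CPM beyond.

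**Figure D4:**
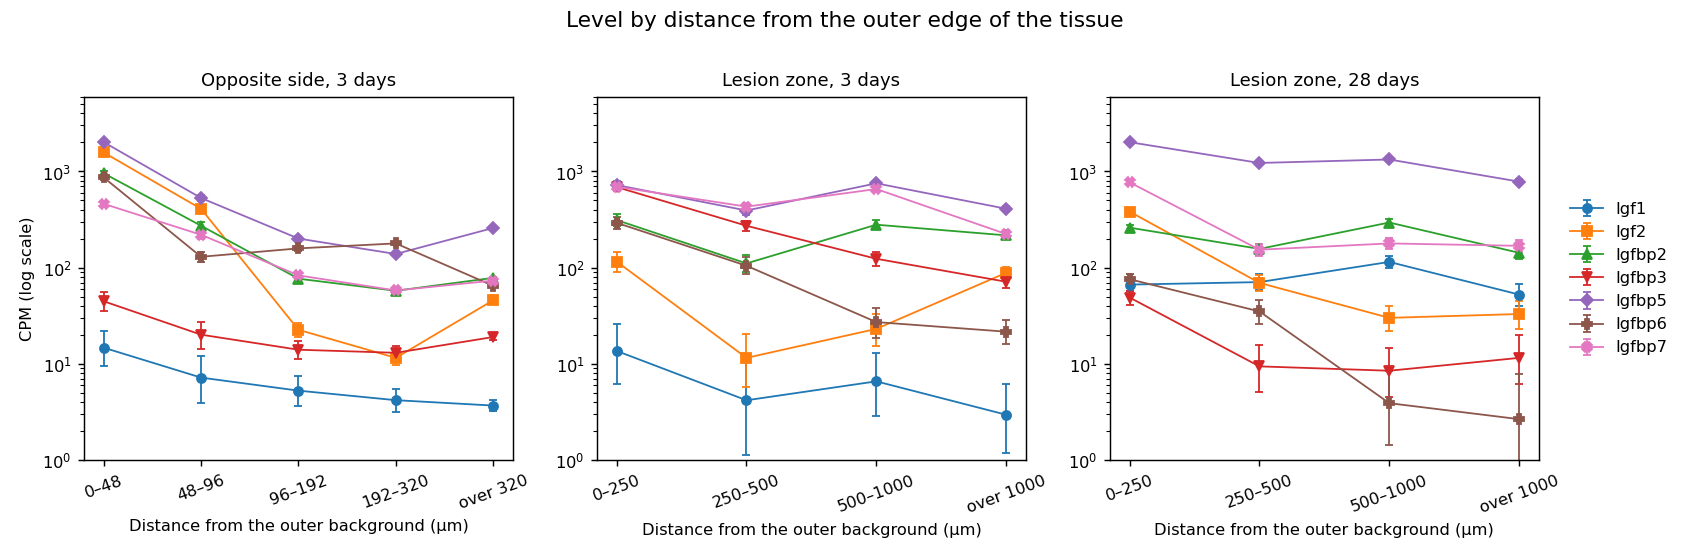
CPM on a log axis against distance from the outer background for 7 of the genes, on the opposite side at 3 days and in the lesion zones at 3 and 28 days, with 95% Poisson intervals as bars. On the opposite side Igf2 drops from 1574 to 22.7 CPM within 192 µm, and in the 3-day zone Igfbp3 drops from 689 to 71.6 CPM with depth. Heights of different genes are not comparable, since each has its own probes.

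The anatomy of the opposite side showed where each gene was found in tissue away from the impact. Bins were assigned by smoothed scores of marker lists, and values are given for the 3-day and then the 28-day section. The list for deep cortical layers also outlined an arc of hippocampus, so its bins mix both tissues. Of 60 checks of a gene's highest compartment under other settings, 30 moved and 0 reversed, so these values depend on the settings. Choroid plexus bins held 2017 and 2480 CPM of Igf2 and 2968 and 3088 CPM of Igfbp2, and fibroblast and meningeal bins 1871 and 2758 CPM of Igf2 and 1122 and 1239 CPM of Igfbp2. Choroid plexus bins held a further 16.9% and 33.0% of the opposite side's Igf2 UMIs. Receptor levels were highest in choroid plexus as well, at 91.4 and 126 CPM for Igf1r and, in the 28-day section, 109 CPM for Igf2r. The intervals for choroid plexus and ependyma overlapped for both receptors on both days. At 3 days the Igf1r interval for choroid plexus, 67.6 to 121 CPM, also reached those of most other lists. These were fibroblasts and meninges, thalamus, both cortical lists, white matter and dentate granule cells. Igfbp3 also peaked there, at 108 and 122 CPM, as far as its low counts on this side show.

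Other binding proteins marked neural tissue besides the meninges. Igfbp6 was highest in fibroblast and meningeal bins, at 759 and 322 CPM, and Igfbp4 too, at 292 and 305 CPM, with 123 and 229 CPM in choroid plexus. Within neural tissue Igfbp6 stood at 238 and 210 CPM in upper cortical layers, 95.5 and 92.5 CPM in bins of the deep-layer list and 2.27 and 1.20 CPM in the thalamic relay nuclei. Igfbp4 stood at 120 and 158 CPM in upper layers, 160 and 160 CPM in deep layers and 9.18 and 11.2 CPM in the thalamus. Striatal bins held 62.0 and 55.1 CPM of Igfbp6, and Igfbp4 at a level within 90.0 to 110 CPM (95% interval) at 3 days and at 63.2 CPM at 28 days, so cortex and striatum both carried them, with little in the thalamus. Igfbp5 ran the other way, at 357 and 401 CPM in the thalamus and 527 and 994 CPM in white matter. In bins scoring strictly for dentate granule cells, the input neurons of the hippocampus, it stood at 1488 and 550 CPM. Igf1 was sparse throughout the opposite side. It was highest in fibroblast and meningeal bins, at 20.8 and 23.7 CPM on 43 and 19 UMIs. Its thalamic level was 8.16 and 7.57 CPM on 72 and 38 UMIs, or 20.6% and 20.7% of its UMIs in bins holding 10.6% and 11.1% of all UMIs of that side. In the thalamus of the injured side outside the zone it gave 43 UMIs at 3 days (log2 ratio to the opposite thalamus 0.45, -0.14 to 1.01) and 29 UMIs at 28 days (0.79, 0.04 to 1.52).

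**Figure D5:**
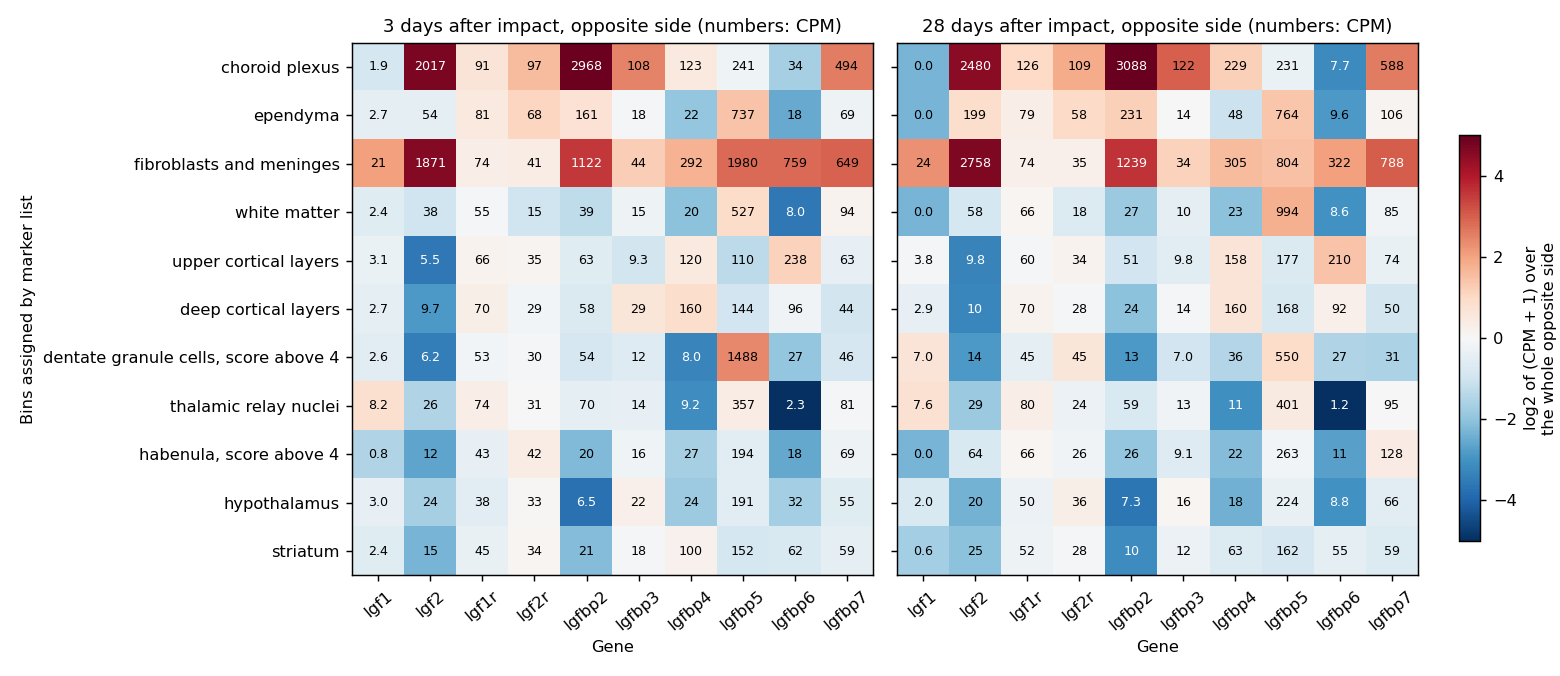
Levels in CPM, printed in each cell, of the 10 genes in bins of each marker list on the opposite side at 3 and 28 days, coloured by the log2 ratio of the level to that of the whole opposite side (1 CPM added to both). Igf2 and Igfbp2 are concentrated in choroid plexus and in fibroblasts and meninges, Igfbp6 in meninges and cortex, Igfbp4 in meninges, choroid plexus and cortex, and Igfbp5 in meninges, dentate granule cells, ependyma and white matter.

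Whole sides were compared next, lesion zones included. At 3 days 3 of the 10 genes were at least 2-fold higher on the injured side and 0 lower, beside 10.5% higher and 2.12% lower among 16164 genes. They were Igfbp2 (2.41-fold, with 233 CPM on the injured side), Igfbp3 (45.6 against 18.3 CPM, 2.49-fold) and Igfbp7 (206 against 83.0 CPM, 2.48-fold). At 28 days only Igf1 passed, at 18.5 against 4.07 CPM (4.53-fold, log2 ratio 2.18, interval 1.95 to 2.43), and 0 genes were lower, beside 6.43% higher and 0.582% lower among 15640 genes. Outside the lesion zone the 28-day side ratio of Igf1 was 0.25 on the log2 scale (-0.08 to 0.57), under 2-fold. For Igfbp3 at 3 days the side ratio outside the zone was 0.20 on the log2 scale. Leaving out choroid plexus, ependyma, fibroblast, meningeal and border bins brought the 3-day side ratio of Igfbp2 to 0.77 and that of Igfbp7 to 0.98, both under 2-fold.

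Tissue next to the zone also differed from its mirror. Over the first 250 µm outside the 3-day zone, Igf2 stood at 406 CPM against 48.6 CPM in the mirrored band, Igfbp2 at 680 against 116 CPM and Igfbp7 at 361 against 92.1 CPM, while Igfbp3 stood at 35.9 against 23.2 CPM. At 28 days the same band held Igf2 at 319 against 37.9 CPM and Igfbp2 at 391 against 40.6 CPM. These bands are not matched for anatomy. Within upper cortical layers outside the zone at 3 days, Igfbp2 stood at 235 against 63.1 CPM (log2 ratio 1.90, 1.70 to 2.09) and Igfbp7 at 195 against 62.7 CPM (1.64, 1.42 to 1.85). At 28 days those ratios were -0.03 (-0.30 to 0.24) and -0.45 (-0.70 to -0.20). Igfbp4 in the same layers stood at 43.2 against 158 CPM at 28 days (log2 ratio -1.87, interval -2.13 to -1.63), and at 221 against 120 CPM at 3 days. The sides held different stretches of cortex, and the part of position within the cortex was not tested. Choroid plexus outside the zone differed little between sides at 28 days, with Igf2 at 2409 against 2480 CPM and Igfbp2 at 3092 against 3088 CPM.

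Further genes of the pathway were listed by role, 37 in all, of which 36 were in the tables and 1, Rps6kb1, was not analysed here. At 3 days 30 of them had enough counts in the zones, and 6 were at least 2-fold higher, 1 lower, with a median log2 ratio of 0.49. At 28 days 29 were compared, with 6 higher, 2 lower and a median of 0.14. The share higher was close to the 17.0% and 16.4% found over all genes, of which 8.57% and 7.82% were lower. Among proteins that bind or cut the family, Igfbpl1, a related binding protein, stood at 32.5 against 2.47 CPM at 3 days (log2 ratio 3.68, 3.01 to 4.51) and 25.8 against 1.76 CPM at 28 days (3.82, 3.07 to 4.81). Htra3, a secreted protease, stood at 28.9 against 10.4 CPM and 27.1 against 7.72 CPM. The stanniocalcins, inhibitors of the proteases that release the factors from binding proteins, were divided. Stc2 stood at 2.32 against 19.9 CPM at 3 days (-3.04, -4.08 to -2.25) but 7.13 against 3.39 CPM at 28 days (1.06, 0.36 to 1.83), and Stc1 at 2.24 against 5.96 CPM at 28 days.

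Downstream, the adaptor Shc1 stood at 51.7 against 18.3 CPM in the zone and mirror at 3 days and 45.8 against 18.7 CPM at 28 days. Eif4ebp1, the translation repressor acted on by mTOR, stood at 50.6 against 14.3 CPM (log2 ratio 1.82, 1.49 to 2.17) and 26.7 against 4.88 CPM (2.44, 1.93 to 3.01). Igf2bp2, an RNA-binding protein named for Igf2 mRNA, stood at 13.6 against 0.961 CPM at 3 days (3.73, 2.70 to 5.18) and 4.19 against 1.08 CPM at 28 days. The insulin receptor Insr stood at 52.3 against 43.5 CPM and 48.8 against 49.7 CPM, so Igf1r, Igf2r and Insr were each under 2-fold. Other receptors of the list are not reported here.

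Finally, the genes whose levels across squares of 16 by 16 bins most resembled each member were found, as Pearson's r of log2(CPM + 1) over 893 squares of both sections. The squares share library depth and anatomy, so r is a description. The order also depended on the size of the squares. With squares 8 bins wide, 0 of the 5 closest genes were shared for Igf1r and Igf2r, 1 for Igfbp7, 2 for Igfbp4, and 3 or 4 for the other 6. For Igf1 these were Creg1 (r = 0.47), Cst7, Apoe, Serpinf2 and Ahnak2, and Cst7, a gene of activated microglia, gave r = 0.60 in the 28-day section against -0.02 in the 3-day section. Igf2 lay closest to Slc13a4 (0.72), Dcn, Ogn, Pcolce and Itih2, and those close to Igfbp2 included Slc13a4 (0.57) and Pcolce (0.56). Igfbp5 lay closest to the astrocyte water channel Aqp4 (0.62), then Id3 and Apoe, and Igfbp7 to Cald1 (0.69), Ahnak and Vim. Igfbp6 lay closest to the neuronal genes Kcnh3 (0.76) and Lmo4 (0.74), and Igfbp4 to Dkk3 (0.60). Genes close to Igfbp3 included Uhrf1 (0.36), Manf, Tuba1c and Lgals1, and r for Uhrf1 was 0.46 at 3 days and 0.14 at 28 days. No gene exceeded r = 0.26 for Igf1r, whose closest was Serinc2, or 0.37 for Igf2r, whose closest was Ccdc39. Among the members themselves Igfbp4 and Igfbp6 were most alike (0.63), followed by Igfbp2 and Igfbp7 (0.53). Igf1 and Igfbp5 gave 0.26 at 3 days and 0.51 at 28 days.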

How the data were processed

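The 10 genes and all marker and pathway lists were chosen with earlier results of these data known, and zone bins matched by marker list were compared after seeing the data. The authors ran Space Ranger 4.0.1 on FFPE Visium HD libraries (mouse probe set v2.0, build mm10) and deposited raw UMI counts per gene and 16 µm bin. Here bins with at least 100 UMIs were kept (119617 and 103316, leaving out 1.93% and 2.15%). Summed counts of each area were scaled to CPM, and log2 ratios took a pseudocount of 0.5 count, with exact conditional binomial intervals (95%) for ratios and exact Poisson intervals for levels. No test or p-value was computed, and "past" means at least 2-fold with at least 20 UMIs. Zone tiles measured 64 µm, smoothed over 5 by 5 tiles, in a patch of at least 25 tiles. The zone genes were Cd68, Lyz2, Ctsz, Lgals3, Cd52 and Laptm5. Anatomical bins scored above 1.5 (above 4 for dentate granule cells and habenula). The CA1 list marked mostly cortex, and no level is given for it. It still took part in the assignment and claimed 7202 and 3251 bins of the opposite side. Those bins were therefore in no other list and not among the bins matching none. Named pathway genes were those past 2-fold with at least 50 UMIs over both zones in either section, and Insr, which was not past 2-fold, was named in addition. The intervals were tried on simulated independent counts, which lack the clustering of neighbouring bins and so cannot test the intervals for it. Python 3.11.15, scipy 1.17.1 and edgeR 4.0.16 (TMM scaling as an alternative only) were used. No sequence is shown, as expression counts do not bear on one. Some genes that met the naming rules are not reported here.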

Additional observations from a re-analysis of the deposited data

How the results depend on the processing

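No paired analysis was possible because each group was 1 section. With 1 animal per day, intervals cover counting error alone, and settings below show only how the areas' outlines and scaling bear on the values. Many checks of single genes moved, 86 of 240 for zone ratios and 66 of 140 for side ratios. For border ratios 33 of 80 moved and for day ratios 17 of 80. Of 160 checks of zone bins with and without a marker UMI, 26 moved and 3 reversed. Counts of the 10 genes past 2-fold that moved by over 1.5 times were these. At 3 days a looser zone outline (95th percentile) gave 5 higher and a midline 10 columns higher gave 4, against 2. Over all genes 18.9% and 16.4% were then higher, against 17.0%. In that zone 1 was lower, against 0, with a stricter outline, with the midline 10 columns higher or as UMIs per bin. Over all genes 11.7%, 7.95% and 22.7% were then lower, against 8.57%. For the side and day settings below no share over all genes is given here, so those counts cannot be set against a background. Without choroid plexus, ependyma, fibroblast, meningeal and border bins (chosen after seeing the data) the injured side had 1 higher and 1 lower at 3 days, against 3 and 0, and 1 lower at 28 days, against 0. At 28 days the injured side had 2 higher with the midline 10 columns higher and 0 without the lesion zone, against 1. As UMIs per bin 2 genes were lower in the 28-day than the 3-day zone, against 1. Igf2 in the 3-day zone ranged from -1.43 (stricter outline) to 1.29 (looser outline) on the log2 scale, and Igfbp2 from -0.30 (UMIs per bin) to 1.44 (looser outline). Without thinning, ratios turned for Igf2 by microglial UMI (0.19 and 0.05) and for Igf2r by monocyte and border macrophage UMI at 28 days (1.31, against -1.06 from 0 UMIs). TMM scaling moved all log2 ratios by -0.15 in the 3-day zone and by -0.05 in the 28-day zone, and counting per bin by -0.61 and -0.25. Genes with few UMIs, Igf1 at 3 days above all, could not be resolved at this depth.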
